A study of Mus musculus with 235 samples.

Results

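The transcripts of 8 genes that store lipid in droplets or switch cells between glucose and fat as fuel were followed through 8 brain regions of mice given dexamethasone or vehicle. The genes are the perilipins Plin2, Plin3 and Plin4, the pyruvate dehydrogenase kinases Pdk2 and Pdk4, the lipins Lpin1 and Lpin2, and the carnitine palmitoyltransferase Cpt1a. They were taken by symbol, and all 8 were found among the 27998 genes of the count table. The 8 were chosen with earlier results of these data known, so the share of them that changed is a description. The animals were male C57Bl/6 mice of 3 months, group-housed, with no transgene. Of these, 15 received dexamethasone, a synthetic glucocorticoid, at 10 mg/kg by intraperitoneal injection and 15 received saline, and brains were collected after 4 h of exposure. Tissue was punched from the PFC, PVN, AMY and CER and from dCA1, vCA1, dDG and vDG, as the labels name the regions. Each region gave 13 to 15 libraries per arm, of 3′ end tags with molecular identifiers.

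Lipid droplets are stores of neutral lipid in a coat of proteins, and perilipins are coat proteins that govern the access of lipases to the stored lipid. Pyruvate dehydrogenase kinases phosphorylate and switch off the enzyme complex through which pyruvate enters the citric acid cycle, which spares glucose when fat is burned. Lipins remove the phosphate from phosphatidic acid on the way to triglyceride, and carnitine palmitoyltransferase 1 controls the entry of long-chain fatty acids into mitochondria. In liver, muscle and fat, fasting and glucocorticoids are known to raise several of these genes. In brain, lipid droplets are known mainly from glia.

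Library totals ran from 268538 to 1451422 counts (median 742957). Levels are given in CPM, with every library brought to the same total by TMM factors. At this depth Plin2 and Pdk4 were below the expression filter in most regions. Each gene was therefore also tested on the counts of an animal's 8 libraries summed, in the 26 animals with all 8 (13 per arm, totals of 4760039 to 7076142 counts), where every one of the 8 genes passed the filter in either arm alone. None of the 15 CER vehicle libraries held a count of Gabra6, which marks granule cells of the cerebellum, and 4 of the 15 CER dexamethasone libraries held 11 counts of it in all. A count of 0 allows up to 3.07 to 11.2 CPM in the vehicle libraries, depending on the library. CER is used as a label only, and the part of such a difference in tissue in the CER results was not tested. In vehicle libraries dCA1 and dDG differed in 1.89% of the genes tested, and CER and dDG in 49.8%. The tissue was whole punches, in which a change in the number of cells of a type and a change in RNA per cell cannot be told apart. P-values are edgeR quasi-likelihood p-values adjusted by Benjamini-Hochberg over all genes tested in that fit, and a gene was called at an adjusted p under 0.05.

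In the sums per animal, 6 of the 8 genes rose after dexamethasone, 1 fell and 1 did not pass the test. With same-numbered animals of the arms paired (the replicate block), Cpt1a did not pass (adjusted p 0.165), and 5 rose. Of all 13375 genes tested there, 9.74% rose and 8.82% fell, 18.6% in either direction. Plin4 rose 6.28-fold, Pdk4 1.85-fold, Lpin1 1.55-fold, Pdk2 1.24-fold, Lpin2 1.17-fold and Cpt1a 1.13-fold. Plin2 fell to 0.715 of its vehicle level, and Plin3 was at 0.955 of it. The 3 perilipins thus had a rise, a fall and a difference that did not pass. Plin5, a perilipin of tissues that burn fat, was below the filter and not tested. It had 0.683 ± 0.49 CPM per animal after vehicle and 2.77 ± 1.06 CPM after dexamethasone (SD, n = 13 each), and was named after its values were seen. In the plot of sums per animal, the arms of Plin4 and of Lpin1 do not overlap, and those of the other 6 genes do. Of all genes tested per animal, 2.97% had arms that do not overlap.

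**Figure D1:**
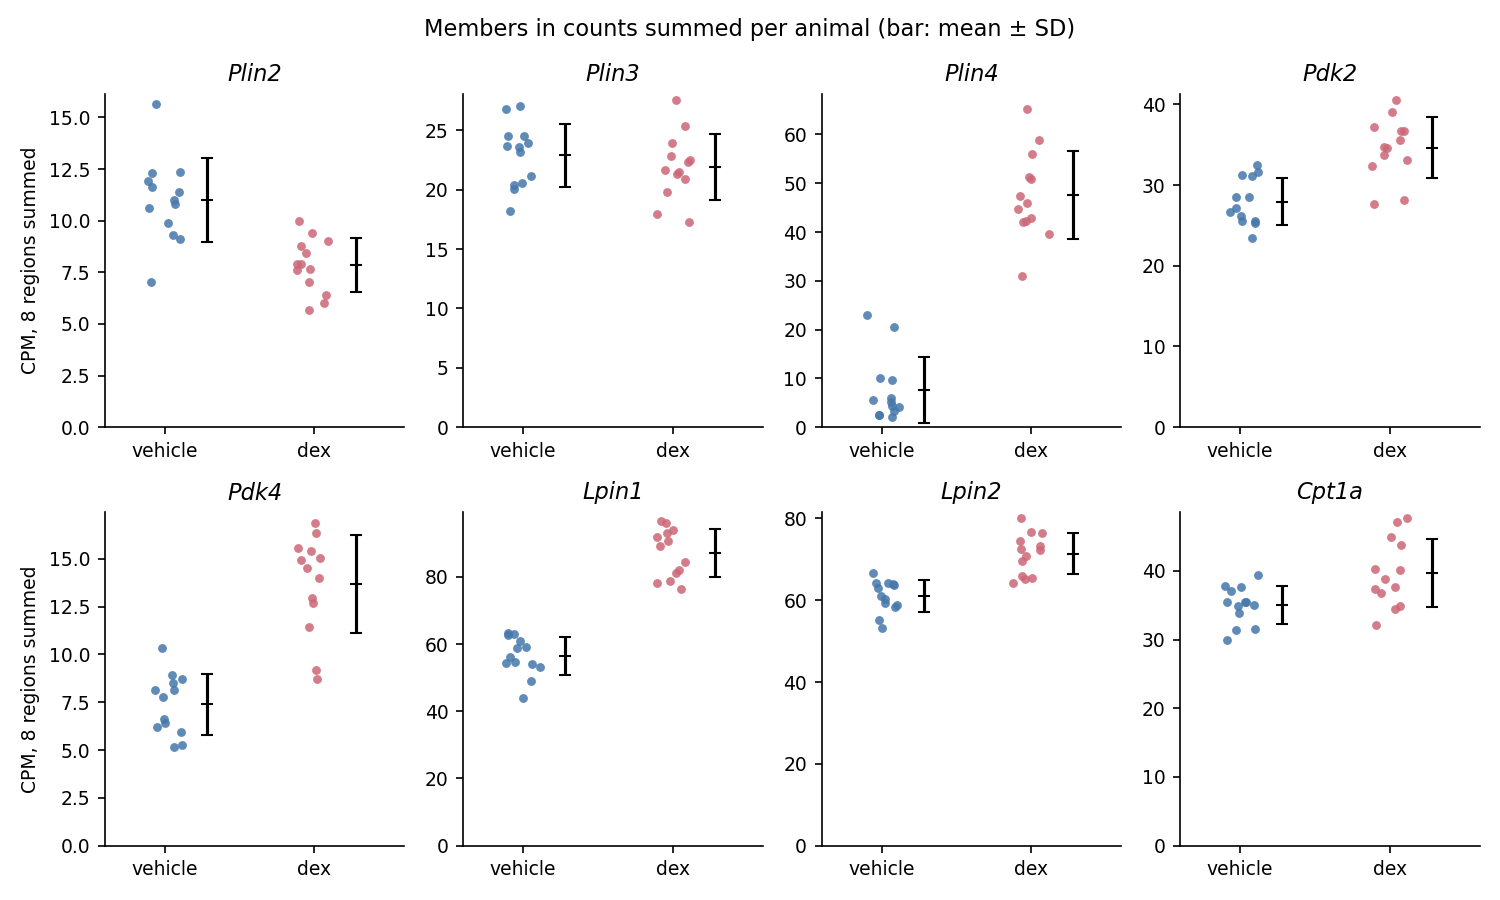
Counts of an animal's 8 regions summed, in CPM (y axis, from 0), for each of the 8 genes. Each point is 1 animal, 13 given vehicle and 13 given dexamethasone (dex), and the bar beside the points is the mean ± SD. Every Plin4 and Lpin1 value after dexamethasone lies above every vehicle value, and all 13 Plin2 values after dexamethasone lie below the vehicle median of 11.0 CPM.

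Within single regions, 50 of the 64 combinations of gene and region passed the expression filter, and 18 of these passed the test, all with a rise. Over all genes the share called as higher was 3.90% in CER, 3.86% in PFC, 3.57% in PVN and 3.54% in AMY. It was 3.41% in vCA1, 2.64% in vDG, 2.57% in dCA1 and 2.33% in dDG, where the replicate block raised the calls in either direction from 316 to 543. Lpin1 accounted for 8 of the 18, Plin4 for 7, and Pdk2, Pdk4 and Lpin2 for 1 each. The filter bears on these counts: in the 7 regions where Plin4 was tested its vehicle libraries alone would not have passed. In 6 of them it entered the test through its dexamethasone libraries, and in dCA1 neither arm alone would have passed. Without the filter Plin4 passed in all 8 regions, against a called share of all genes of 4.06% in PFC, 3.76% in vCA1, 3.70% in CER, 3.54% in PVN, 3.45% in AMY, 3.03% in dCA1, 2.69% in vDG and 2.44% in dDG. The median log2 fold change of all genes tested lay between -0.02 and 0.00 in every region.

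**Figure D2:**
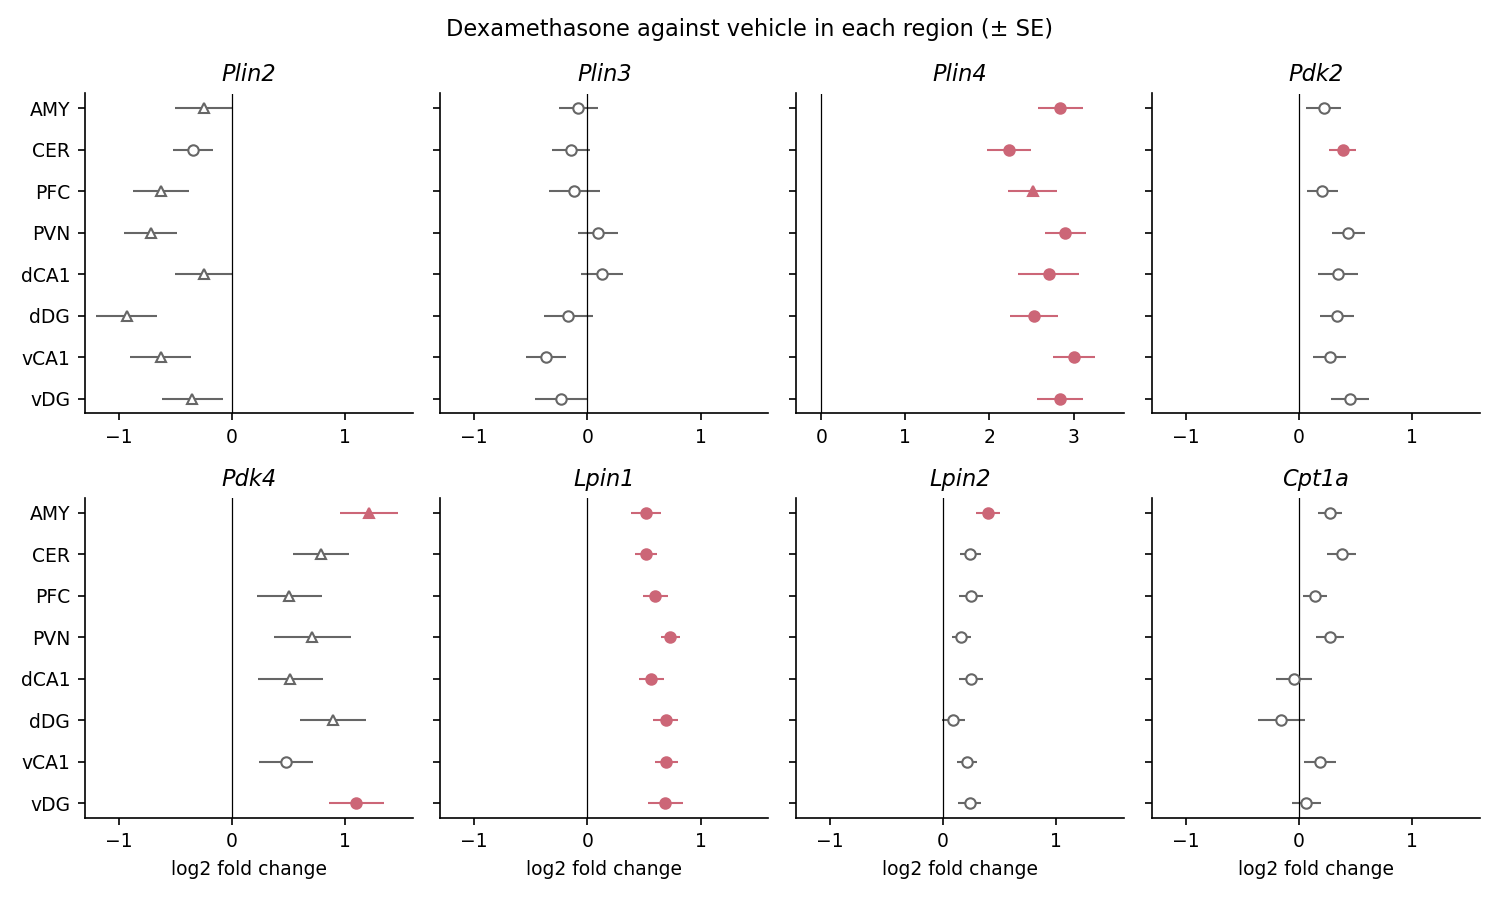
Log2 fold change of dexamethasone against vehicle with its SE (x axis) in each region (y axis), 1 panel per gene, with a different x axis for Plin4. Circles are tests with the expression filter, triangles are fits without it for genes below the filter, and filled symbols have an adjusted p under 0.05. Plin4 and Lpin1 are filled in all 8 regions, Plin2, Plin3 and Cpt1a in none, and all 8 Plin2 symbols lie below 0.

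Plin4 (ENSMUSG00000002831, chromosome 17, 56100591 to 56109803, minus strand, GRCm38) encodes a perilipin best known from fat and muscle. Its exons share 6 bases with Hdgfl2 on the other strand. The 250 bases upstream of its RefSeq start, at chr17:56109783-56110032 on GRCm38.p6, are shown because it is the gene that rose most of the 8. 3 motifs were searched on both strands of such windows, and matches are in capitals: the palindromic glucocorticoid receptor site (GNACA, then NNN, then TGTNC), the receptor's half-site AGAACA, which can overlap with it, and the nuclear receptor half-site AGGTCA. Of 32851 RefSeq promoter windows of this length, 0.387% held the first, 16.1% the second and 14.0% the third. The Plin4 window held none of them.
Plin4 promoter: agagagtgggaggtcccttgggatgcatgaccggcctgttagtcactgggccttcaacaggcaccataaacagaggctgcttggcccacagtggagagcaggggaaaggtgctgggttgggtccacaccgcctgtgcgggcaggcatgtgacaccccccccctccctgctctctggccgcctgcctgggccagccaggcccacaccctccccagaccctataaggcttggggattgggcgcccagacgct

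The vehicle median of Plin4 was low in every region, from 3.19 CPM in PFC to 7.3 CPM in CER. In the sums per animal the vehicle values were 2.07 CPM at the lowest, 5.18 CPM at the median and 23.1 CPM at the highest, and the dexamethasone values were 30.9, 46.0 and 65.2 CPM. No animal given dexamethasone overlapped with any given vehicle. The log2 fold change was 2.65 ± 0.23 (SE, n = 13 per arm, adjusted p 4.9e-11).

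In AMY Plin4 went from a vehicle range of 1.63 to 29.4 CPM with a median of 7.09 CPM to a range of 25.5 to 112 CPM with a median of 63.3 CPM. In CER it went from 1.6 to 64.9 CPM (median 7.3 CPM) to 52.5 to 121 CPM (median 70.9 CPM). These are the regions with the highest vehicle libraries, and in both the arms overlap, with 14 of 15 libraries in AMY and 10 of 15 in CER above the vehicle maximum. In PVN the vehicle libraries lay between 0 and 25.0 CPM (median 4.53 CPM) and those after dexamethasone between 25.8 and 78.8 CPM (median 51.9 CPM). In vDG the vehicle range was 0 to 22.3 CPM (median 6.98 CPM) and the dexamethasone range 29.0 to 111 CPM (median 51.1 CPM). The arms did not overlap in PVN or in vDG. Over all genes tested in a region, the share with arms that do not overlap was lowest in dDG at 0.105% and highest in CER at 0.620%.

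In vCA1 Plin4 went from 0 to 10.2 CPM (median 4.32 CPM) to 18.0 to 53.8 CPM (median 34.4 CPM), again with no overlap. In PFC the vehicle libraries lay between 0 and 11.4 CPM (median 3.19 CPM) and the dexamethasone libraries between 11.7 and 53.7 CPM (median 20.0 CPM). PFC is the region where Plin4 was below the filter, and without the filter its log2 fold change there was 2.52 ± 0.29 (SE, adjusted p 1.62e-09). The arms of PFC do not overlap, but their nearest libraries are 11.4 and 11.7 CPM. In dCA1 the vehicle range was 0 to 18.5 CPM (median 3.84 CPM) against 13.2 to 68.3 CPM (median 25.7 CPM) after dexamethasone, and in dDG 0 to 19.9 CPM (median 4.51 CPM) against 9.5 to 61.1 CPM (median 30.9 CPM). In these the arms overlap, with 10 of 13 and 13 of 15 libraries above the vehicle maximum.

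Over the 8 regions, 106 of 117 dexamethasone libraries lay above the highest vehicle library of their region, and all 117 above its median. Of the 5 punching dates, 4 had at least 2 libraries per arm in each region. The mean was higher after dexamethasone in all 32 combinations of region and date compared and in all 32 of region and library plate. The regions came from the same animals, so these counts of libraries and combinations are not of independent samples. The log2 fold change was smallest in CER, at 2.23 ± 0.26 (SE, adjusted p 1.05e-08), and largest in vCA1, at 3.01 ± 0.25 (SE, adjusted p 6.35e-12). The CER value, and so its rank, depended on the high vehicle animals described below. The difference among the 8 regions did not pass an interaction test (F = 0.715, unadjusted p 0.66, adjusted p 1.00).

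**Figure D3:**
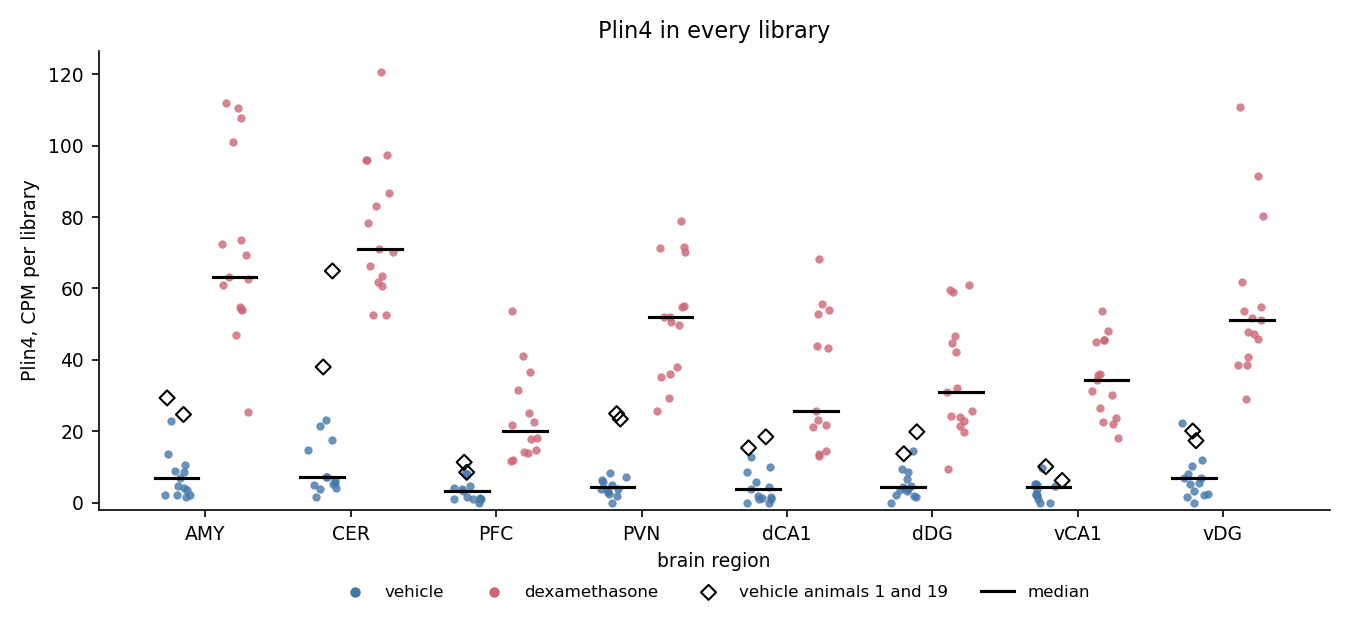
Plin4 in CPM (y axis) in each library, by region (x axis), with vehicle in blue, dexamethasone in red and the group median as a bar. Open diamonds are the vehicle libraries of animals 1 and 19, which are among the 3 highest vehicle libraries in every region. The arms are separate in PFC, PVN, vCA1 and vDG.

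The high vehicle libraries came from the same animals. Animals 1 and 19, singled out after their values were seen, were each among the 3 highest vehicle libraries in all 8 regions, and 7 of the 8 regional maxima were theirs. Their sums per animal were 20.5 and 23.1 CPM, against 2.07 to 10.0 CPM in the other 11 vehicle animals and 30.9 CPM in the lowest animal given dexamethasone. They were punched on different dates, numbered 1 and 4 in the labels. Leaving out the vehicle animals highest in Plin4 must raise its fold change, so the direction of the following values is set by that choice. Without animals 1 and 19 the log2 fold change of Plin4 per animal was 3.24 (adjusted p 3.31e-16) in place of 2.65, and in CER 2.93 (adjusted p 3.87e-14) in place of 2.23. In dCA1 Plin4 was below the filter without them.

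The genes whose levels followed Plin4 most closely were found by correlating log2 CPM over all libraries after subtracting the mean of each region and arm. Libraries of 1 animal share that animal, and the values are a description. They were Cdkn1a, an inhibitor of the cell cycle (Pearson's r 0.62, with 0.60 in vehicle and 0.65 in dexamethasone libraries), Tsc22d3, which encodes the glucocorticoid-induced leucine zipper (r 0.60, with 0.65 and 0.44), and the kinase gene Sgk1 (r 0.56, with 0.56 and 0.58). These genes were chosen by their likeness to Plin4 over libraries that include those of animals 1 and 19. High values in these animals therefore follow in part from the choice. Animals 1 and 19 had the highest vehicle sums of Cdkn1a too, at 93.2 and 93.5 CPM against 30.8 to 65.0 CPM in the others. For Tsc22d3 they had 184 and 180 CPM against 71.2 to 157 CPM. For Sgk1 animal 19 was highest of the vehicle animals at 136.9 CPM and animal 1 the 4th highest at 91.3 CPM, with the others between 40.0 and 128 CPM. Vehicle animals 11 and 25 lay above animal 1 for Sgk1, at 128 and 122 CPM, with Plin4 sums of 10.0 and 6.0 CPM.

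**Figure D4:**
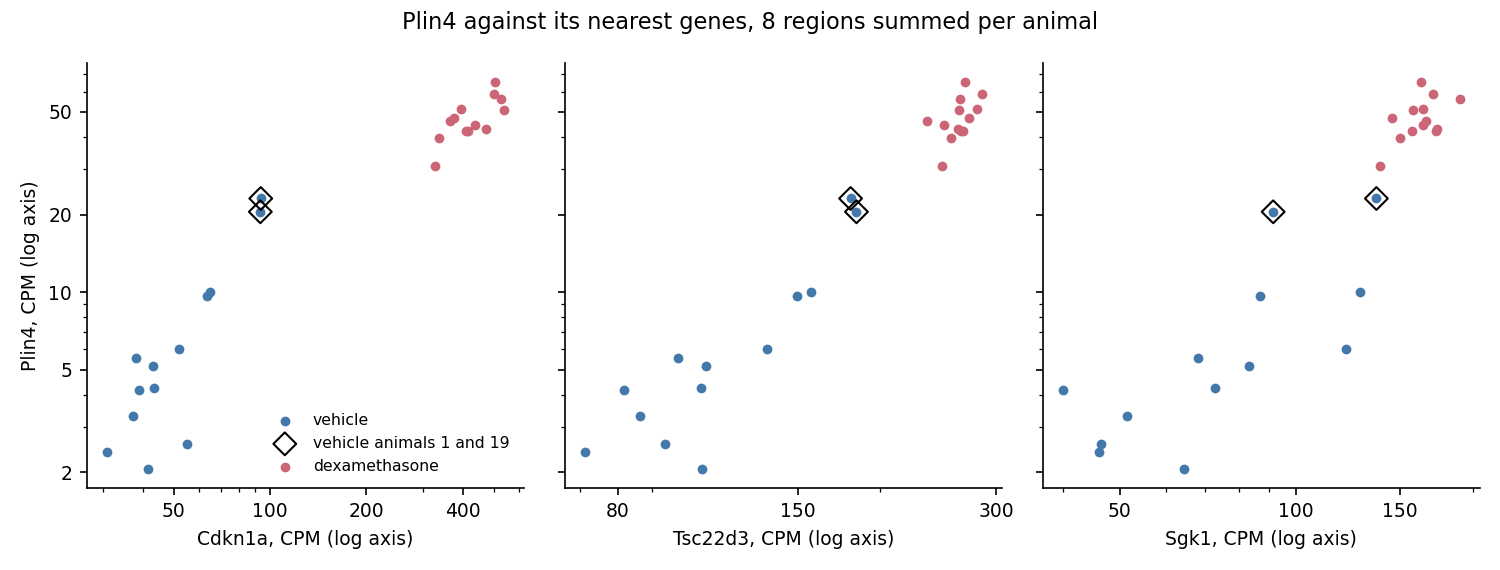
Plin4 (y axis, CPM on a log axis) against Cdkn1a, Tsc22d3 and Sgk1 (x axes, CPM on log axes) in the counts of 8 regions summed, with 1 point per animal, 13 given vehicle in blue and 13 given dexamethasone in red. Vehicle animals 1 and 19, marked by diamonds, have Plin4 sums of 20.5 and 23.1 CPM, between the other vehicle animals and those given dexamethasone.

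The 7 other genes did not share this pattern in animals 1 and 19. Of the 13 vehicle animals, animal 1 ranked between 2 and 13 from the top for them and animal 19 between 3 and 13. The lowest Plin2 sum was that of animal 19 (7.01 CPM) and the lowest Lpin2 sum that of animal 1 (53.3 CPM). Over all libraries, Plin4 correlated with the other 7 genes at r between -0.17 and 0.24.

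Plin2 (ENSMUSG00000028494, chromosome 4, 86648386 to 86670060, minus strand) encodes the perilipin found on droplets of most cell types. Its upstream window, at chr4:86670060-86670309 on GRCm38.p6, is shown as that of the only gene of the 8 that fell. It held the letters AGGTCA on the reverse strand, 218 bases before the start.
Plin2 promoter: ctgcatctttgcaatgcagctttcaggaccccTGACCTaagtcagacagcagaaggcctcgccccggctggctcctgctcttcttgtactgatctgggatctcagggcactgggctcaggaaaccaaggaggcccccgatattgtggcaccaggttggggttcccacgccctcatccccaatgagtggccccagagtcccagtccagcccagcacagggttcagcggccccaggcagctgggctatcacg

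Per animal, Plin2 lay between 7.01 and 15.7 CPM after vehicle (median 11.0 CPM) and between 5.7 and 10.0 CPM after dexamethasone (median 7.9 CPM). All 13 dexamethasone animals were below the vehicle median and 3 below its minimum. On the log2 scale this was a change of -0.48 ± 0.10 (SE, n = 13 per arm, adjusted p 3.43e-04). In single regions the libraries held a median of 3 to 11 counts, and only CER passed the filter, at -0.34 ± 0.18 (SE) on the log2 scale, adjusted p 0.4. Without the filter the 8 regional values ran from -0.93 in dDG to -0.24 in AMY, all below 0, and none passed (smallest adjusted p 0.0544, in dDG).

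The dDG vehicle libraries of Plin2 lay between 4.25 and 18.9 CPM (median 9.85 CPM) and the dexamethasone libraries between 0 and 15.4 CPM (median 4.98 CPM), with 14 of 15 below the vehicle median. In vDG the medians were 9.35 and 9.97 CPM and 7 of 15 libraries lay below the vehicle median. The interaction test among regions did not pass for Plin2 (unadjusted p 0.456). Endothelial markers moved in the same direction: 5 of 6 fell per animal and 0 rose, with a median log2 fold change of -0.59. Their summed level had medians of 316 to 464 CPM over regions after vehicle and 229 to 314 CPM after dexamethasone, ranging over libraries from 205 to 904 CPM and from 161 to 499 CPM, with none of the 6 at 0. The 6 microglial markers had 3 that fell and a median of -0.28. The part of these cells in the fall of Plin2 was not tested. The genes most like Plin2 were Apoe, the main lipid carrier of astrocytes (r 0.43), Mid1ip1, a regulator of fatty acid synthesis (r 0.42), and Mlc1, a membrane protein of astrocytes (r 0.41).

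Plin3 (ENSMUSG00000024197, chromosome 17, 56278962 to 56290511, minus strand) encodes a perilipin that moves between the cytosol and young droplets. Per animal it lay between 18.2 and 27.1 CPM after vehicle (median 23.6 CPM) and between 17.3 and 27.6 CPM after dexamethasone (median 21.6 CPM), so that the arms covered the same range. The log2 fold change was -0.07 ± 0.07 (SE, adjusted p 0.593), with a 95% interval from -0.20 to 0.07. It was tested in 8 regions and passed in 0, with an unadjusted p under 0.05 in vCA1 (-0.36, p 0.0481), and DESeq2 called none either. The genes most like it were Trf, which encodes transferrin (r 0.55), Apod (r 0.54) and Cldn11, a tight junction gene of myelin (r 0.51). Of 6 oligodendrocyte markers 3 fell per animal, with a median of -0.15.

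Pdk4 (ENSMUSG00000019577, chromosome 6, 5483351 to 5496309, minus strand) is the kinase gene of this family best known to rise in fasting. Per animal it went from 5.16 to 10.4 CPM (median 7.77 CPM) to 8.74 to 16.9 CPM (median 14.5 CPM). Of the 13 animals given dexamethasone, 11 lay above the vehicle maximum. Its log2 fold change was 0.89 ± 0.11 (SE, adjusted p 1.01e-07).

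In single regions Pdk4 was tested in vDG and vCA1 only. In vDG, where it passed, the vehicle libraries lay between 3.17 and 29.1 CPM (median 9.75 CPM) and the dexamethasone libraries between 9.4 and 37.3 CPM (median 18.6 CPM), with 5 of 15 above the vehicle maximum. In vCA1 the vehicle libraries lay between 2.61 and 32.1 CPM (median 8.48 CPM) and the dexamethasone libraries between 7.3 and 22.7 CPM (median 15.2 CPM), a change of 0.48 ± 0.24 on the log2 scale (SE, adjusted p 0.328). Neither arm alone passed the filter in these regions. Without the filter AMY passed as well, where 3.45% of all genes did, by 1.21 ± 0.26 on the log2 scale (SE, adjusted p 0.00146), with medians of 7.22 and 13.9 CPM. The 8 values without the filter ran from 0.48 to 1.21, and the difference among regions did not pass (unadjusted p 0.489).

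Pdk2 (ENSMUSG00000038967, chromosome 11, 95026258 to 95041354, minus strand) is a widely expressed kinase of the same family. Per animal it went from 23.5 to 32.5 CPM (median 27.2 CPM) to 27.7 to 40.5 CPM (median 34.7 CPM), with all 13 dexamethasone animals above the vehicle median and 10 above its maximum. Its log2 fold change was 0.31 ± 0.06 (SE, adjusted p 1.24e-04). The 8 regional values were all above 0, from 0.21 in PFC to 0.45 in vDG. In CER, where the vehicle range of 23.1 to 47.3 CPM (median 30.3 CPM) stood against 24.7 to 56.9 CPM (median 42.3 CPM), it passed at 0.39 ± 0.12 (SE, adjusted p 0.0438). That call was lost without the filter (adjusted p 0.0616) and without the CER library absent from the authors' log2 tables (adjusted p 0.0564). In PVN it was 0.44 ± 0.14 (SE, adjusted p 0.0686), and it did not pass without the filter either (adjusted p 0.0930). It passed with DESeq2 (adjusted p 0.0466), with the replicate block (adjusted p 0.0358) and with date and plate as factors (adjusted p 0.0423). With RIN as a covariate it passed too (adjusted p 0.0243). It also passed without vehicle animals 1 and 19 (adjusted p 0.0109), which were chosen after seeing the data. Animal 1 held the highest vehicle library of Pdk2 in PVN, at 64.6 CPM, so leaving it out raises the fold change.

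The libraries of the 2 kinases did not move together within groups (r -0.10 over all libraries). Among the genes most like Pdk2 were Zbtb7a, a transcription factor (r 0.53), and Fasn, the fatty acid synthase (r 0.48). Those most like Pdk4 were Tspyl4 (r 0.46), Rnf5 (r 0.45) and Atn1 (r 0.45). Among 15 other genes of the pyruvate dehydrogenase complex and pyruvate entry, all tested per animal, 1 rose and 1 fell, with a median log2 fold change of 0.00 against -0.01 over all genes. These are 13.3% of the list, below the 18.6% of all genes called per animal. The gene that rose was Pdp2, a phosphatase that reverses these kinases (0.34 ± 0.07, SE, adjusted p 6.07e-04), and the gene that fell was Pdk1, another kinase of the family (-0.15 ± 0.04, SE, adjusted p 0.0116).

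Lpin1 (ENSMUSG00000020593, chromosome 12, 16535669 to 16589770, minus strand) encodes the lipin of fat and muscle, and rose in every region. The upstream window of its RefSeq start, at chr12:16610967-16611216 on GRCm38.p6, lies outside the span of the gene in the count table. It is shown because Lpin1 passed in all 8 regions. It held AGAACA on the reverse strand 163 bases before the start and AGGTCA 74 bases before it.
Lpin1 promoter: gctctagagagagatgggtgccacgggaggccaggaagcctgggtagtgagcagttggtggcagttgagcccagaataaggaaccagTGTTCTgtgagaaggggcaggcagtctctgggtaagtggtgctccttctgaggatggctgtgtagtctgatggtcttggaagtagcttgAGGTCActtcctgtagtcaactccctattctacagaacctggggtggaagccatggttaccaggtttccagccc

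Per animal Lpin1 went from 44.1 to 63.4 CPM (median 56.2 CPM) to 76.3 to 96.7 CPM (median 89.1 CPM), with no overlap. The log2 fold change was 0.63 ± 0.05 (SE, n = 13 per arm, adjusted p 1.03e-11). Across regions it lay between 0.52 in CER and 0.73 in PVN, a narrow range, and the difference among regions did not pass (F = 0.568, unadjusted p 0.782).

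In PVN the vehicle libraries lay between 55.6 and 85.1 CPM (median 72.6 CPM) and the dexamethasone libraries between 75.9 and 149 CPM (median 121 CPM), 14 of 15 above the vehicle maximum. In CER the ranges were 45.2 to 117 CPM (median 86.3 CPM) and 91.5 to 160 CPM (median 127 CPM), with 12 of 15 above. In AMY they were 30.4 to 96.7 CPM (median 60.5 CPM) and 57.8 to 120.1 CPM (median 91.8 CPM), with 6 of 15 above. In these regions the highest vehicle libraries reached into the dexamethasone range.

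In PFC Lpin1 went from a median of 43.0 CPM (26.7 to 63.8 CPM) to 67.2 CPM (44.2 to 77.6 CPM), and in dCA1 from 46.2 CPM (27.0 to 62.1 CPM) to 65.2 CPM (50.8 to 96.7 CPM). In dDG it went from 44.6 CPM (26.7 to 67.7 CPM) to 74.3 CPM (52.8 to 102 CPM), and in vCA1 from 44.9 CPM (28.7 to 59.7 CPM) to 69.0 CPM (54.3 to 83.3 CPM). All dexamethasone libraries of these regions lay above the vehicle median. In vDG the ranges were 42.8 to 105 CPM (median 57.0 CPM) and 52.4 to 225 CPM (median 88.1 CPM). The highest vDG value came from dexamethasone library 3, which the authors' log2 tables do not list, and without it the log2 fold change was 0.58 (adjusted p 0.00605) in place of 0.69 (adjusted p 0.00473). Over all regions, 75 of 117 dexamethasone libraries, which share animals between regions, lay above the vehicle maximum of their region.

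The genes most like Lpin1 were Chpt1, which makes phosphatidylcholine from diacylglycerol (r 0.59), Ahcyl1 (r 0.52) and Slc6a11, a GABA transporter of astrocytes (r 0.52). Of 6 astrocyte markers 1 rose and 2 fell per animal, with a median of -0.04.

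Lpin2 (ENSMUSG00000024052, chromosome 17, 71182560 to 71249817, plus strand), a lipin of liver and brain, rose less. Per animal it went from 53.3 to 66.8 CPM (median 61.1 CPM) to 64.3 to 80.2 CPM (median 72.4 CPM), with all 13 dexamethasone animals above the vehicle median and 9 above its maximum. Its log2 fold change was 0.23 ± 0.04 (SE, adjusted p 4.54e-05). In AMY, where it passed, the vehicle libraries lay between 40.9 and 86.7 CPM (median 53.7 CPM) and the dexamethasone libraries between 45.3 and 95.5 CPM (median 71.9 CPM), a change of 0.39 ± 0.10 on the log2 scale (SE, adjusted p 0.0123). The other 7 regions did not pass, with values from 0.09 in dDG to 0.25 in dCA1. Within groups Lpin1 and Lpin2 correlated at r -0.14. The genes most like Lpin2 were Ahi1 (r 0.44), Ryr2, a calcium release channel (r 0.42), and Cacna1b, a neuronal calcium channel (r 0.41), and of 6 neuronal markers 0 rose and 0 fell (median -0.01).

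Of 16 other genes of glycerolipid synthesis, 11 were tested per animal, of which 3 rose and 1 fell (median -0.02), or 36.4% against the 18.6% of all genes. The list was chosen with earlier results of these data known, so its share is a description. Gpat4, which carries out the first acylation of glycerol phosphate, rose by 0.27 ± 0.05 (SE, adjusted p 2.6e-05), and Agpat5, of the next step, by 0.26 ± 0.04 (SE, adjusted p 8.52e-06). Plpp1, a lipid phosphatase of membranes, rose by 0.18 ± 0.06 (SE, adjusted p 0.0207). Plpp3, of the same family, was at -0.28 ± 0.04 (SE, adjusted p 2.37e-07) and fell in 5 of 8 regions.

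Cpt1a (ENSMUSG00000024900, chromosome 19, 3323301 to 3385732, plus strand) encodes the liver-type carnitine palmitoyltransferase, which in brain is known mainly from astrocytes. Per animal it went from 29.9 to 39.5 CPM (median 35.4 CPM) to 32.2 to 47.7 CPM (median 38.8 CPM), with 10 of 13 dexamethasone animals above the vehicle median. On the log2 scale the change was 0.18 ± 0.06 (SE, adjusted p 0.0213), the smallest rise called among the 8 genes. With the replicate block it was 0.13 and did not pass (adjusted p 0.165). No region passed, with values from -0.15 in dDG to 0.38 in CER (adjusted p 0.0642), and the 8 unadjusted p included 3 under 0.05. DESeq2 called no region either. In CER the vehicle libraries lay between 24.1 and 64.6 CPM (median 40.4 CPM) and the dexamethasone libraries between 33.7 and 79.0 CPM (median 57.2 CPM). Date and plate as factors (0.42, adjusted p 0.0194) and the replicate block (0.39, adjusted p 0.0304) brought CER past the threshold. The window upstream of its start held AGGTCA on the reverse strand, 94 bases before it. Of the genes whose windows are not shown, Lpin2 held AGAACA in the window of 1 of its 3 starts, 203 bases before it, and the windows of Plin3, Pdk2 and Pdk4 held none of the motifs. Among the genes most like Cpt1a were Pbxip1 (r 0.51) and Cd63, a tetraspanin of late endosomes (r 0.48).

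Of 22 other genes of fatty acid oxidation, 21 were tested per animal, and 2 rose and 1 fell (median -0.02). These are 14.3% of those tested, below the 18.6% of all genes, so that the count is not a result about the list. Cpt2, the carnitine palmitoyltransferase of the inner mitochondrial membrane, rose by 0.50 ± 0.12 (SE, adjusted p 0.00267), from 4.68 ± 1.15 to 6.54 ± 1.22 CPM (SD, n = 13 each). Eci2, an enoyl-CoA isomerase, rose by 0.30 ± 0.05 (SE, adjusted p 4.99e-05). Hadh, a dehydrogenase of the cycle, had -0.15 ± 0.05 (SE, adjusted p 0.0383).

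Of 24 other lipid droplet genes 19 were tested per animal, and 3 rose and 2 fell (median -0.04), or 26.3% against the 18.6% of all genes. This list too was chosen with earlier results of these data known, and its share is a description. Pnpla2, the lipase that takes the first fatty acid off stored triglyceride, rose by 1.45 ± 0.09 (SE, adjusted p 1.4e-14), from 17.6 ± 4.49 to 48.1 ± 4.73 CPM (SD, n = 13 each). It rose in all 8 regions, by 1.08 to 1.81. Lipe, the hormone-sensitive lipase, rose by 0.78 ± 0.08 (SE, adjusted p 4.08e-10) and passed in 4 of the 6 regions that tested it. Dgat2, the enzyme of the last step of triglyceride synthesis, rose by 0.53 ± 0.12 (SE, adjusted p 6.51e-04), from 62.9 ± 14.0 to 91.2 ± 21.4 CPM, and passed in 3 of 8 regions, whose values ran from -0.23 to 0.84. G0s2, an inhibitor of the Pnpla2 lipase, had -0.39 ± 0.10 (SE, adjusted p 0.00371), and Abhd5, its activator, -0.25.

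Of 22 genes of the PPAR and fasting response 18 were tested per animal, and 8 rose and 2 fell, with a median of 0.11. These are 55.6% of those tested, against the 18.6% of all genes. As the list was chosen with earlier results of these data known, this share is a description and not a test of the list. Ppara, the receptor that drives fatty acid oxidation in fasting, rose by 1.13 ± 0.11 (SE, adjusted p 1.44e-09), from 5.83 ± 1.61 to 12.7 ± 1.83 CPM. The uncoupling protein genes Ucp2 and Ucp3 rose by 1.06 ± 0.09 (SE, adjusted p 2.69e-11) and 0.71 ± 0.13 (SE, adjusted p 6.93e-05). Angptl4, a secreted inhibitor of lipoprotein lipase, rose by 1.86 ± 0.12 (SE, adjusted p 5.85e-14), from 1.82 ± 0.39 to 6.65 ± 1.38 CPM, but 8 of its 13 vehicle animals were over the filter and it entered the test through the dexamethasone arm. The genes that fell were Slc16a1, a monocarboxylate transporter (-0.58), and Ppargc1a, a coactivator of mitochondrial genes (-0.18).

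**Figure D5:**
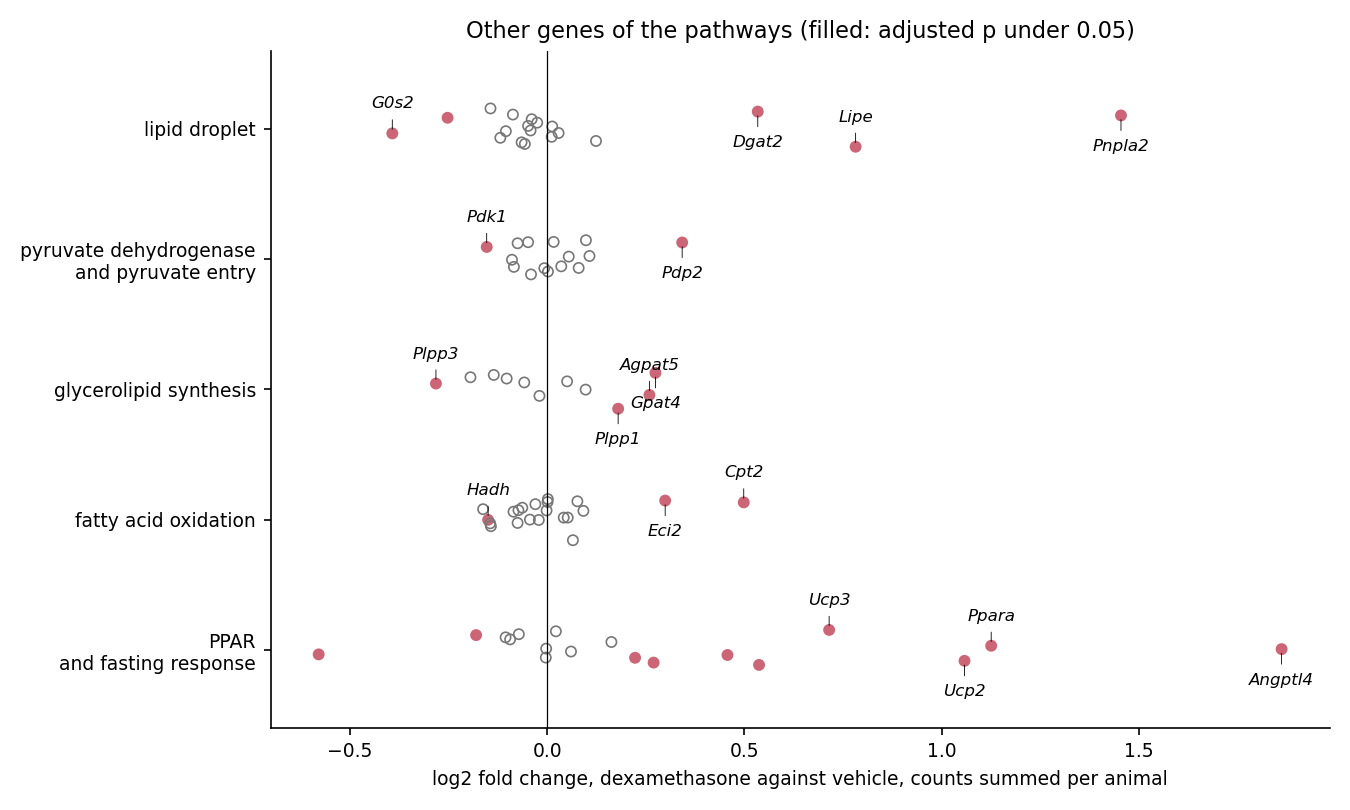
Log2 fold change per animal (x axis) of the tested genes of 5 lists (y axis, with points spread vertically for view), without the 8 genes themselves. Each point is a gene, filled where the adjusted p was under 0.05, and the up to 4 called genes with the largest change in each list are named. Most points lie near 0, with Angptl4, Pnpla2, Ppara and Ucp2 farthest to the right.

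Adipocytes, the cells in which Plin4 is best known, were checked by 6 markers. Lep and Cfd had 0 counts in every library, and Adipoq had 1 count in the vehicle libraries and 2 in the dexamethasone libraries. Plin1 had 14 and 21 counts in these arms, Retn 55 and 54, and Car3 114 and 84. The summed level of the 6 had regional medians of 0.861 to 3.26 CPM after vehicle and 0 to 2.9 CPM after dexamethasone, and reached 22.4 and 8.78 CPM. The part of adipocytes in the rise of Plin4 was not tested.

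Vehicle levels of the 8 genes were then compared among regions, with the animal as a block. Of 7 genes tested, 5 differed among regions, where 73.3% of all genes did, so that the share is close to that of all genes. They were Lpin1 (F = 20.7, adjusted p 1.07e-16), Plin3 (F = 12.3, adjusted p 6.2e-11), Plin4 (F = 9.24, adjusted p 1.85e-08), Plin2 (F = 3.76, adjusted p 0.00194) and Lpin2 (F = 3.36, adjusted p 0.00463). Pdk2 (adjusted p 0.0515) and Cpt1a (adjusted p 0.13) did not pass, and Pdk4 was below the filter. CER had the highest vehicle mean of 6 of the 8 genes, and PFC the lowest of 5.

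Lpin1 went from 88.5 ± 19.2 CPM in CER through 70.6 ± 9.94 CPM in PVN, 64.5 ± 21.3 CPM in AMY and 60.6 ± 16.6 CPM in vDG to 46.2 ± 9.01 CPM in dCA1 (SD, n = 14 or 15). The remaining regions, dDG, PFC and vCA1, had 45.3 ± 10.4, 43.4 ± 10.3 and 42.7 ± 8.51 CPM. Between neighbours in this order, CER was above PVN (adjusted p 0.0249) and vDG above dCA1 (adjusted p 0.0393), and the other neighbours did not differ past the threshold. Plin3 ran from 38.3 ± 11.7 CPM in CER over 31.6 ± 17.6 in vDG, 27.4 ± 10.7 in AMY, 25.4 ± 7.82 in vCA1, 21.0 ± 6.58 in dDG, 19.8 ± 6.89 in dCA1 and 15.4 ± 4.23 in PVN to 13.8 ± 6.47 CPM in PFC. No neighbours in that order differed past the threshold. Of the 28 pairs of regions 15 did, where the tests of all genes passed in 31.4% of cases over these pairs.

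Plin4 ran from 15.1 ± 17.0 CPM in CER over 9.77 ± 9.02 in AMY, 8.28 ± 6.9 in vDG, 7.17 ± 7.56 in PVN, 6.58 ± 5.66 in dDG, 5.82 ± 5.96 in dCA1 and 4.18 ± 3.15 in vCA1 to 3.98 ± 3.55 CPM in PFC. The order is of means, and the highest CER library of Plin4 was at 64.9 CPM. Its vehicle medians were 7.3 CPM in CER, 7.09 CPM in AMY and 6.98 CPM in vDG. The SDs of Plin4 were close in size to the means, no neighbours differed past the threshold, and 11 of the 28 pairs did, near the 31.4% of all genes. Plin2 was highest in CER at 15.9 ± 4.46 CPM, above the next region vDG at 12.7 ± 7.26 CPM (adjusted p 0.044) but not past the threshold against PVN (adjusted p 0.179). Its other regions followed with PVN at 12.6 ± 4.49, AMY at 11.7 ± 5.15, dDG at 10.6 ± 4.58, dCA1 at 10.5 ± 5.58, vCA1 at 9.57 ± 4.56 and PFC at 8.72 ± 3.17 CPM, with no further neighbours apart.

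Lpin2 had another order, with PVN highest at 72.3 ± 8.23 CPM and then dCA1 at 62.0 ± 15.9, vCA1 at 61.7 ± 5.5, vDG at 58.8 ± 12.5, PFC at 58.4 ± 12.0, dDG at 58.1 ± 11.1, CER at 54.8 ± 8.34 and AMY at 53.6 ± 12.6 CPM. No neighbours differed past the threshold. Pdk2 lay between 22.4 ± 5.8 CPM in PFC and 32.5 ± 7.1 CPM in CER, Cpt1a between 30.2 ± 5.11 CPM in PFC and 40.9 ± 9.96 CPM in CER, and Pdk4 between 4.55 ± 3.48 CPM in PVN and 11.3 ± 8.0 CPM in vCA1. These orders are of levels within a gene, and 3′ tag counts were not compared between genes.

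Whether the response to dexamethasone differed among the 8 regions was tested for all 8 genes in 1 fit. None passed, where 1.17% of 11053 genes did, and the smallest unadjusted p of the 8 was 0.158 (Cpt1a), so that 0 had an unadjusted p under 0.05. DESeq2's likelihood ratio test called 0 of the 8 as well. A p that misses the threshold does not show that the regions respond alike. With Pdk4 past the threshold in vDG and not in vCA1, or Lpin2 in AMY and not elsewhere, a difference between those regions is therefore not shown.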

How the data were processed

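RNA of each punch went into 3′ end libraries with molecular identifiers, sequenced from 1 end, per the labels' protocols. The authors deposited whole-number read counts, not normalised, in a table of genes by libraries. The submitters' processing notes name FastQC 0.11.4, cutadapt, UMI-tools 0.5.4, STAR 2.6.0a, featureCounts 1.6.4, DESeq2 1.30.1, R 4.0.5 and mm10. The settings, the annotation and the use of strand are not given in the sources used here. The authors also deposited variance-stabilised values on a log2 scale, which served here only to show that 7 libraries are not listed there. No per-sample column was left unused. Symbols came from GENCODE M21, for 27645 of 27998 genes, and 99.9% of shared genes overlapped their GRCm38 position. Promoter windows came from a RefSeq table of GRCm38.p6, where all 8 genes matched.

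Genes passing edgeR's filterByExpr (10 counts) were scaled by TMM and tested with edgeR 4.0.16 quasi-likelihood fits, per region (13 to 15 libraries per arm, no covariates) and on the counts of each animal's 8 libraries summed. The sums give 1 value per animal. The test among regions treated libraries of 1 animal as independent, with the animal as a block as an alternative, and vehicle levels had the animal as a block. SEs are the absolute log2 fold change over the square root of F. Replicate numbers pair the arms by the labels: of 115 same-numbered pairs within a region, all shared the plate and 109 the punching date. Deviations from the group means of such pairs correlated at regional medians of 0.05 to 0.22, and those of other pairs at -0.03 to 0.00. The tests were tried on simulated counts. Alternatives were DESeq2 1.42.0, upper-quartile scaling, no filter, date and plate, RIN, a dentate covariate, the replicate block, all 30 animals, and, chosen after seeing the data, leaving out the 7 libraries or vehicle animals 1 and 19. Computation used matplotlib 3.10.9, pandas 2.3.3, numpy 2.4.6, Python 3.11.15 and R 4.3.3. Library totals limit the precision of low genes, floors cover counting error only, and intervals of fold changes cover the spread between animals. With 13 to 15 libraries per arm no single replicate was left out in turn.

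The 8 genes, the lists and the markers were chosen with earlier results of these data known. Named are all 8 genes, the up to 4 called genes of each list with the largest change per animal, and for each gene the up to 3 most correlated genes with r of at least 0.4, of which 2 are not reported here. Plin5, Abhd5, Slc16a1, Ppargc1a and vehicle animals 1 and 19 were named after their values were seen.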

Additional observations from a re-analysis of the deposited data

How the results depend on the processing

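The count of called combinations of gene and region was 18, and 17 to 20 under the alternatives. Over the 8 regions 5.17% of the tests of all genes passed, 5.14% to 6.41% under the alternatives with the filter and 3.33% without it. The count of genes called per animal was 7, and 6 with the replicate block, where 18.6% and 19.2% of all genes were called. The count of genes whose response differed among regions was 0 throughout (0.468% to 1.44% of all genes), and that of genes whose vehicle level differed was 5, or 6 with upper-quartile scaling, without the animal block and with no filter (73.3%, or 73.4%, 73.3% and 47.7%, of all genes). Plin4 and Lpin1 kept their call wherever they were tested. 2 values changed sign, neither called: Plin3 in PFC with the replicate block (0.035, adjusted p 0.958) and Cpt1a in dCA1 without the 7 libraries (0.010, adjusted p 0.993), and the cause was not tested. The vehicle level of Pdk2 passed with upper-quartile scaling (adjusted p 0.0318) and without the animal block (adjusted p 0.0331).

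With the replicate block, which pairs same-numbered animals (11 pairs per animal), 20 combinations of gene and region and 6.41% of the tests of all genes passed, Cpt1a per animal did not (0.13, adjusted p 0.165), and Cpt1a in CER (0.39, adjusted p 0.0304) and Pdk2 in PVN (0.47, adjusted p 0.0358) did. It changed no other call of the 8 genes. In dDG the block raised the calls over all genes from 316 to 543, and leaving the dentate level in as a covariate lowered those of vCA1 from 497 to 279. Depth limits the low genes, with a median of 2 to 6 counts per vehicle library for Plin4 and of 3 to 14 counts per library for Plin2 and Pdk4.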
